A study of Homo sapiens with 120 samples.

Results

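The apelin receptor gene APLNR and the genes of its 2 peptide ligands, APELA and APLN, were followed across 120 RNA libraries of the established human line H1, which is made of embryonic stem cells. The members were the 3 rows of the count table with those gene symbols, of 62703 rows in all, and all 3 passed the filter on low counts in both arms of the study. The study edits or overexpresses LNCPRESS1 (lncPRESS1), which makes a long non-coding RNA in pluripotent cells. In the first arm, 96 libraries, unedited cells (WT), a knockout (KO) and ΔATG cells, by the name a lncPRESS1 without its start codon, were sampled on day 0 and on days 1 to 5 of 3 protocols. BMP4 was given for mesoderm, SMAD inhibition from a neural induction kit (SMADi) for neuroectoderm, and a definitive endoderm kit (Endo) for endoderm. In the second arm, 24 libraries, H1 cells carried an empty vector, lncPRESS1, lncPRESS1 ΔATG or a construct called lncSIRP, each sampled early, at a middle stage and late. The number of clones behind each edit, the days of the stages, the promoter of the constructs and the nature of lncSIRP are not known from the labels, so genotype and clone cannot be told apart. Each of the 60 groups had 2 libraries, a and b. The labels do not call them separate cultures, so all p-values measure only the spread between libraries, which may be technical.

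APLNR is a G protein-coupled receptor of the cell surface. Its older known ligand, apelin, is made by APLN, and its second ligand, Elabela (also called Toddler), is made by APELA. In vertebrate embryos Elabela acts at gastrulation, when cells of the primitive streak move inwards to form mesoderm and endoderm. Human embryonic stem cells secrete Elabela, where it has been described to act without APLNR, and the receptor is known as a surface marker of mesoderm, including its lateral and cardiac parts. In adults apelin and its receptor act in blood vessels and the heart.

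APLNR (ENSG00000134817) lies at chr11:57233577-57237314 on the minus strand of GRCh38 in GENCODE 29, with 1140 coding bases (380 codons) in 1 exon. APELA (ENSG00000248329) lies at chr4:164877004-164898965 on the plus strand, with 162 coding bases (54 codons) in 2 exons. APLN (ENSG00000171388) lies at chrX:129645259-129654937 on the minus strand, with 231 coding bases (77 codons) in 2 exons. The coding sequences of the 2 ligands are shown because both genes encode short precursors whose active part is the end of the chain. Capitals mark the last 11 codons of APELA and the last 13 codons of APLN, which encode the shortest peptides commonly used as active ligands, and the stop codon that follows is not printed.
APELA: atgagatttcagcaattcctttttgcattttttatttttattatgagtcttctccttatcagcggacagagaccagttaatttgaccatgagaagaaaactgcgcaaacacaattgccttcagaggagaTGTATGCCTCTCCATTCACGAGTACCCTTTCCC
APLN: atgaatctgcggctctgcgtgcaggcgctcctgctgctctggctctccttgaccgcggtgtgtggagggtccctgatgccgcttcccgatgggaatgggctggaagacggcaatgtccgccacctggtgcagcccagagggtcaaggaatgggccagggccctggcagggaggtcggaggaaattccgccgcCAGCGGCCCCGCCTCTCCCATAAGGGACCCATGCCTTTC
The 2 coding sequences differed in composition, with 39.5% G and C in APELA and 65.8% in APLN. Both were rich in codons for arginine and lysine, the residues at which precursor proteases cut, with 10 such codons in APELA and 12 in APLN. Of these, 1 in APELA and 3 in APLN stood within the capitals.

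Library totals ran from 38298603 to 71219834 counts in the differentiation libraries and from 40113893 to 65466595 in those of the overexpression arm. Levels are CPM, counts scaled to the TMM-adjusted total of each library, and each pair of values is given as library a, then library b. A floor of 3 counts in a library was worth 0.0411 to 0.0814 CPM, which covers counting error only. LNCPRESS1 itself stood at 21.4 and 40.6 CPM in WT, 13.2 and 5.6 in KO and 53.1 and 35.2 in ΔATG on day 0, so it was lower but not absent in KO (log2 difference -1.70 ± 0.22 (adjusted p = 2.22e-07)). On day 2 of BMP4 this order held at closer levels, with 7.57 and 8.06 CPM in KO, 10.6 and 10.4 in WT and 11.2 and 14.5 in ΔATG. The order did not hold on every later day. On day 1 of Endo KO held 1.64 and 1.88 CPM beside 1.65 and 1.05 in WT. On day 4 of SMADi both KO (0.0375 and 0.124) and ΔATG (0.113 and 0.105) lay far below WT (5.95 and 6.2). The pluripotency list (POU5F1, NANOG, SOX2, PRDM14 and DPPA4) summed to between 2796 and 3005 CPM in the 6 day 0 libraries and none of the 5 was at 0 there. In the overexpression arm the transcript did not follow all labels at the early stage. At the middle stage libraries labelled lncPRESS1 stood only a little above vector, as given with those results.

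In WT cells APLNR rose steeply from a level under 1 CPM in both protocols that pass through a primitive streak state, and stayed low under SMADi. On day 0 it was at 0.339 and 0.369 CPM. Under BMP4 it stood at 1.69 and 1.93 CPM on day 1, 103 and 141 on day 2, 531 and 401 on day 3, 536 and 399 on day 4 and 189 and 214 on day 5. Every BMP4 library lay above both day 0 libraries, and days 3 and 4 overlapped. Under Endo the rise came sooner, to 339 and 252 CPM on day 1 and 539 and 567 on day 2, and then ended, with 27 and 28.3 on day 3, 6.34 and 6.67 on day 4 and 1.98 and 2.15 on day 5. Under SMADi the daily values were 1.87 and 1.47, 0.342 and 0.364, 0.173 and 0.266, 0.534 and 0.261 and 1.1 and 0.868 CPM. These stayed under 2 CPM in every library, with days 1 and 5 above day 0 and day 3 below it.

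Fold changes are log2 with their standard error from edgeR's quasi-likelihood fit over all groups of an arm, with Benjamini-Hochberg adjustment over all genes of a comparison, with calls made below an adjusted p of 0.05. APLNR differed between days in all 3 protocols, with F = 267 under BMP4, 364 under Endo and 5.29 under SMADi (adjusted p = 0.000918 for the last). Such a joint test called 70.5% of all genes under BMP4, 82% under Endo and 73.7% under SMADi, so a call there says little by itself. From day 0 to day 5 APLNR rose by 9.14 ± 0.39 (adjusted p = 4.38e-27) under BMP4, where 45% of genes were called, and by 2.54 ± 0.61 (adjusted p = 0.000273) under Endo, where 63.4% were. Under SMADi the same difference was 1.47 ± 0.71 (adjusted p = 0.078) and did not pass, against 53.5% of genes called. It passed when only the libraries compared were fitted (1.42, adjusted p = 0.0185) and with DESeq2 (1.39).

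APELA was lower on day 5 than on day 0 in each course. It was a day 0 transcript, at 56.4 and 42.6 CPM in WT. Under BMP4 it stood at 83.9 and 58.2, 39.7 and 25.7, 27.2 and 20.8, 33.1 and 29.3 and 36.6 and 22.7 CPM on days 1 to 5, so that every library from day 2 on lay below both of day 0. Under SMADi it dipped to 19.9 and 18.7 on day 1, stood above day 0 on day 2 at 75.1 and 77.8, and then declined to 15.5 and 17.2, 4.43 and 3.9 and 1.39 and 1.37 CPM. Under Endo it was almost gone by day 1, at 0.808 and 1.4 CPM, and days 2 to 5 gave 0.0696 and 0.104, 0.0366 and 0.0196, 0 and 0.0705 and 0.379 and 0.019, at or near the floor in all but 1 library. The day 2 peak of APLNR in WT Endo libraries thus stood beside at most 0.104 CPM of APELA. From day 0 to day 5 APELA fell, with log2 differences of -0.73 ± 0.20 (adjusted p = 0.00199) under BMP4, -5.16 ± 0.29 (adjusted p = 4.32e-23) under SMADi and -7.97 ± 0.40 (adjusted p = 4.63e-26) under Endo. The BMP4 call was lost without library b of WT day 5 or library a of WT day 0, with values from -1.15 to -0.43 (adjusted p up to 0.146) when 1 of the 4 libraries was left out.

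APLN was lower than APELA on day 0, at 8.16 and 5.94 CPM. Under BMP4 it was 0.814 and 1, 5.47 and 6.29, 3.02 and 1.92, 1.39 and 1.22 and 2.63 and 3.89 CPM on days 1 to 5. It was thus low on day 1, near its day 0 level on day 2 and low again on day 4. Under SMADi it was 3.63 and 4.24, 6.73 and 5.95, 2.6 and 1.25, 0.668 and 0.885 and 0.549 and 0.406 CPM, a decline from day 3 on. Under Endo it was 3.95 and 8.18 CPM on day 1 and 0.244 and 0.313 on day 2, and each library of days 3 to 5 held at most 0.133 CPM. Day 5 was lower than day 0 by the tests of all 3 protocols, with log2 differences of -1.14 ± 0.22, -3.88 ± 0.33 and -6.65 ± 0.48 under BMP4, SMADi and Endo (largest adjusted p = 1.75e-05).

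**Figure D1:**
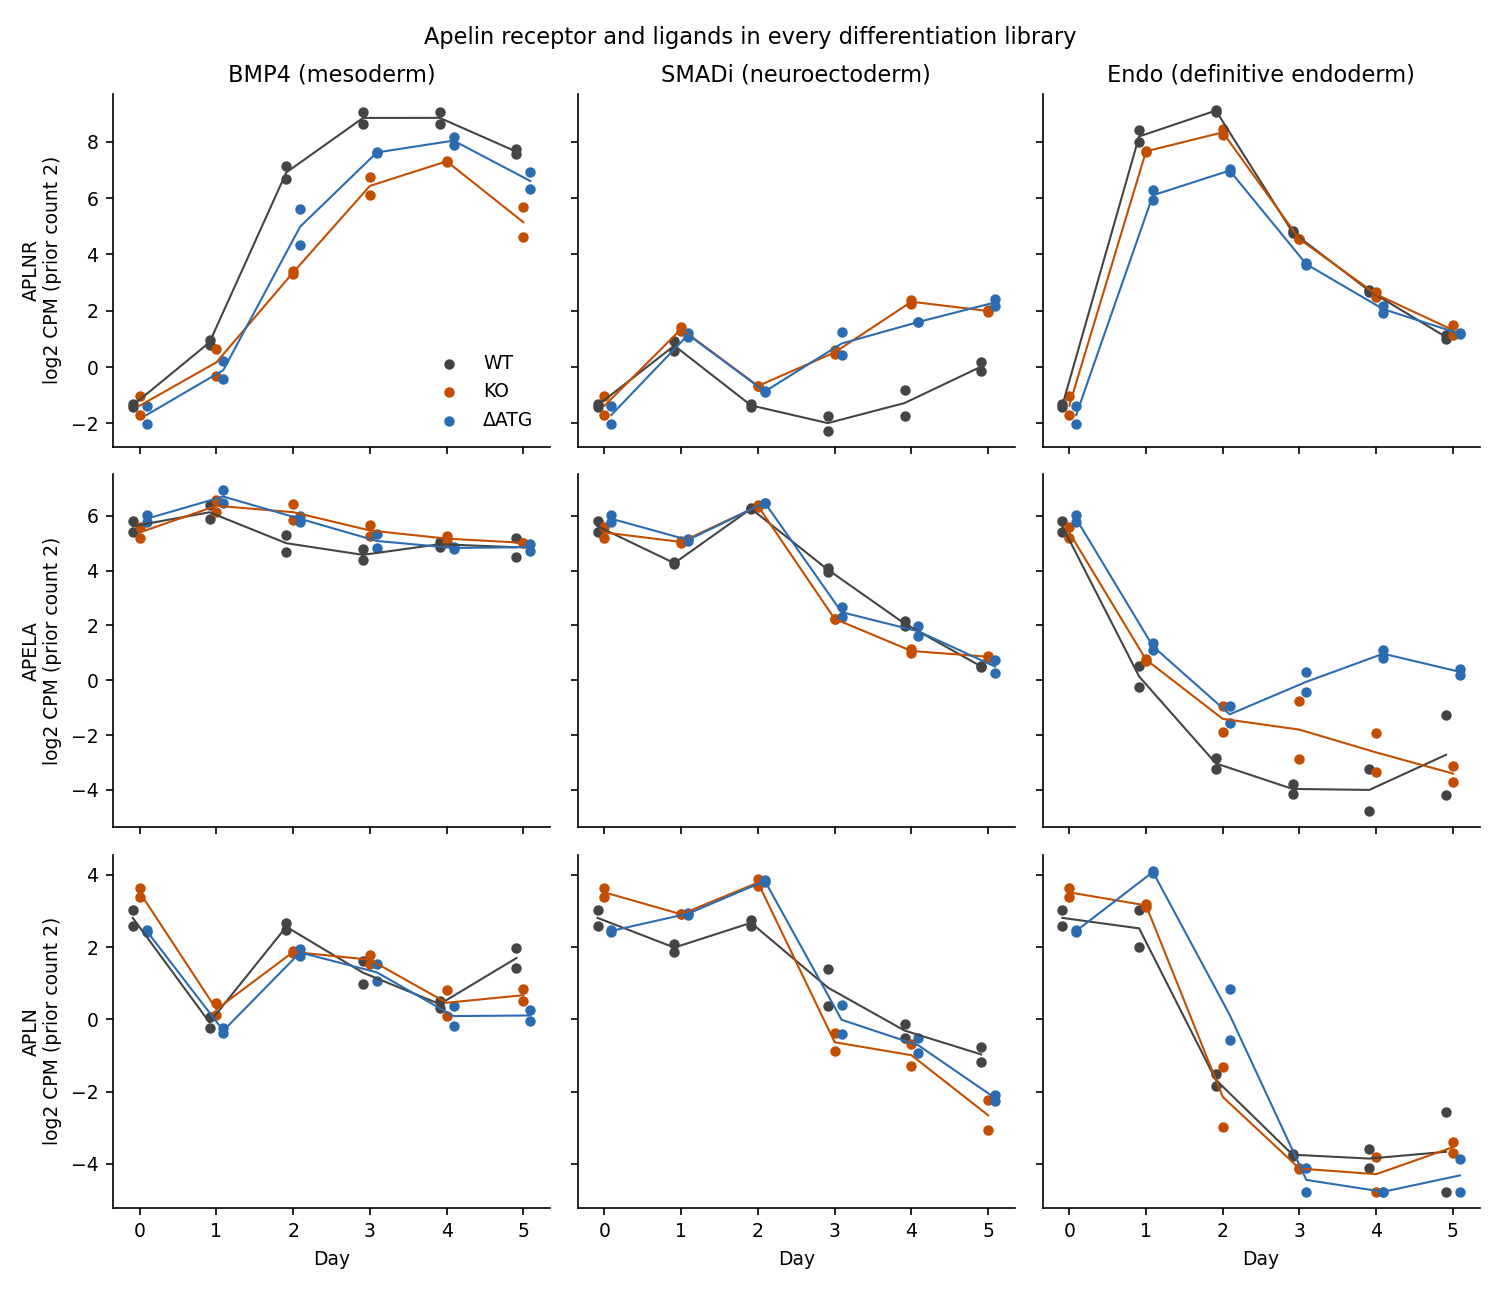
Level of APLNR, APELA and APLN (rows, log2 CPM with a prior count of 2) against day in the BMP4, SMADi and Endo protocols (columns); points are the 96 libraries, lines join the means of 2 libraries, and the day 0 libraries are repeated in each column. APLNR climbs under BMP4 and, for 2 days, under Endo, APELA starts high and falls to the bottom of its panel under Endo, and the KO and ΔATG lines lie under WT for APLNR in BMP4 and above it in SMADi.

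The 3 WT protocols were also compared by the average of days 1 to 5. APLNR was higher under BMP4 than under SMADi by 7.49 ± 0.24 (adjusted p = 2.48e-33), higher under Endo than under SMADi by 6.03 ± 0.22 (adjusted p = 1.33e-31), and lower under Endo than under BMP4, by -1.46 ± 0.13 (adjusted p = 2.2e-14). The share of all genes called was 60.5%, 67% and 67.4% in these comparisons. The difference between Endo and BMP4 averages opposite days and gives no order for single days. APLNR means under Endo lay above BMP4 on day 1 (296 against 1.81 CPM) and day 2 (553 against 122). They lay below it from day 3 on (27.7 against 466 on day 3). APELA was higher under BMP4 than under SMADi (1.71 ± 0.11 (adjusted p = 2.17e-21)) and lower under Endo than under either, by -6.53 ± 0.28 against SMADi and -8.24 ± 0.20 against BMP4. APLN was also lowest under Endo (-3.34 ± 0.32 against SMADi), and its difference between BMP4 and SMADi of 0.32 ± 0.15 (adjusted p = 0.0658) did not pass. The place of Endo did not hold on day 1, when mean APLN was 6.06 CPM there, 3.94 under SMADi and 0.910 under BMP4. The Endo and SMADi libraries of that day overlapped.

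Receptor and ligand levels were compared per kilobase of annotated exon (3.738 kb for APLNR, 3.089 for APELA, 3.205 for APLN). On day 0 in WT the ligands led, with 16 ± 3.17 CPM per kb for APELA (mean ± SD, n = 2), 2.2 ± 0.491 for APLN and 0.0946 ± 0.0057 for APLNR. On day 3 of BMP4 the receptor led, with 125 ± 24.5 for APLNR, 7.77 ± 1.48 for APELA and 0.771 ± 0.242 for APLN. On day 2 of Endo APLNR reached 148 ± 5.33 CPM per kb beside 0.0282 ± 0.00794 for APELA and 0.0868 ± 0.0153 for APLN. On day 2 of SMADi APELA led with 24.8 ± 0.609, ahead of APLN with 1.98 ± 0.17 and APLNR with 0.0944 ± 0.00402. RNA of bulk cultures was measured, so fewer cells with a transcript and less of it per cell cannot be told apart.

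Across the 48 groups of the differentiation arm, APLNR was highest in WT on day 2 of Endo (mean 553 CPM), and these 2 libraries did not overlap those of the next group. WT on days 4 and 3 of BMP4 followed at means of 467 and 466 CPM and overlapped each other. KO on day 2 of Endo (325 CPM) and WT on day 1 of Endo (296 CPM) came after them, and also overlapped. The lowest group was WT on day 3 of SMADi, at 0.220 CPM. For APELA the order was led by ΔATG on day 1 of BMP4 (105 CPM) and ΔATG on day 2 of SMADi (88.9 CPM), and for APLN by ΔATG on day 1 of Endo (16.9 CPM) and ΔATG on day 2 of SMADi (14.2 CPM). Of the 47 pairs of neighbours in each order, 32 overlapped for APLNR, 35 for APELA and 40 for APLN, so single steps in the order mostly did not exceed the spread between libraries.

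On day 0 the edited lines differed little from WT in these genes. APLNR was at 0.268 and 0.453 CPM in KO and 0.211 and 0.347 in ΔATG, overlapping WT. APELA was at 48.7 and 36 CPM in KO and 64.7 and 54.3 in ΔATG, both overlapping WT. APLN was at 10.4 and 12.5 CPM in KO, above both WT libraries, and at 5.28 and 5.56 in ΔATG, below both. The KO difference in APLN passed, at 0.69 ± 0.19 (adjusted p = 0.022), among 4.89% of genes called, but was lost when the day 0 libraries were fitted alone (adjusted p = 0.976), with DESeq2 (adjusted p = 0.182), and without library b of WT or of KO (adjusted p up to 0.308). No member passed in ΔATG against WT, where 5.5% of genes did. Between the edited lines, APLN was lower in ΔATG than in KO by -1.07 ± 0.20 (adjusted p = 0.000236), where 4.07% of genes were called, and this call too was lost when those libraries were fitted alone (adjusted p = 0.794). On day 0 libraries of the same letter deviated together, and with a block for the letter APELA was also higher in ΔATG than in KO (log2 difference 0.50, adjusted p = 0.00139).

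Under BMP4, APLNR was lower in both edited lines, and more so in KO. KO libraries held 1.54 and 0.765 CPM on day 1, 10.5 and 9.98 on day 2, 107 and 70.0 on day 3, 157 and 160.4 on day 4 and 24.6 and 50.9 on day 5. ΔATG libraries held 1.12 and 0.709, 49.1 and 20.3, 195 and 199, 291 and 239.6 and 120.4 and 79.3 CPM on the same days. On each of the 5 days both libraries of each edited line lay below both of WT, and from day 2 on both ΔATG libraries lay above both of KO. The edited lines still gained the transcript, since each line's day 3 libraries were far above its day 0 libraries.

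The mean of days 1 to 5 fell by 2.11 ± 0.14 on the log2 scale in KO (adjusted p = 3.62e-18), where 28.7% of genes were called, and by 1.17 ± 0.14 in ΔATG (adjusted p = 1.16e-09), where 17% were. In KO the daily log2 differences were -3.57 ± 0.26 on day 2, -2.40 ± 0.23 on day 3, -1.56 ± 0.22 on day 4 and -2.42 ± 0.23 on day 5, all called, while -0.59 ± 0.49 on day 1 was not. The share of genes called in KO was 1.27%, 8.2%, 9.86%, 15.6% and 22.3% on days 1 to 5. In ΔATG they were -1.80 ± 0.23, -1.24 ± 0.22, -0.82 ± 0.21 and -1.01 ± 0.22 on days 2 to 5, again all called (largest adjusted p = 0.0119, day 4), with day 1 not called. In ΔATG the day 4 call was lost without WT a or ΔATG b (adjusted p up to 0.243), and the day 5 call without ΔATG b (adjusted p = 0.089). A fit of only the 4 libraries of a day and pair of lines kept the sizes but ended the calls of KO day 4 (-1.54, adjusted p = 0.0676) and of ΔATG on day 2 (-1.82, adjusted p = 0.3), day 3 (-1.25, adjusted p = 0.0597) and day 4 (-0.82, adjusted p = 0.425). The background in ΔATG was 0.929%, 2.44%, 5.6%, 5.12% and 11.1%. The KO difference depended on the day (F = 12.6, adjusted p = 2.1e-05; 10.4% of genes), and the ΔATG difference did not pass that test (F = 2.89, adjusted p = 0.333; 2.27% of genes), although it passed without ΔATG a of day 2 (F = 8.71). The KO dependence was lost when only the compared libraries were fitted (F = 8.36) and with limma-voom (F = 4.09). ΔATG stood above KO by 0.94 ± 0.15 (adjusted p = 6.12e-06), where 13.6% of genes differed between the edited lines.

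Markers of several cell states moved with the receptor, those of the streak and of mesoderm among them. The primitive streak list (TBXT, MIXL1, EOMES, MESP1, EVX1 and GSC) summed to 474 and 469 CPM in WT on day 2 of BMP4, 73.2 and 72.1 in KO and 282 and 158 in ΔATG. The lateral mesoderm list (HAND1, HAND2, FOXF1, GATA4, BMP4 and TBX20) summed to 601 and 452 CPM in WT on day 4, 161 and 185 in KO and 323 and 312 in ΔATG. Over days 1 to 5, 6 of 6 members of each list fell in KO, with a median log2 difference of -1.75 in both lists beside -0.00456 over all genes. In ΔATG 6 of 6 streak members fell (median -0.91) and 4 of 6 lateral mesoderm members did (median -0.55). Of the amnion and trophoblast list (CDX2, GATA3, TFAP2A, ISL1, KRT7 and HAND1), 5 of 6 fell and 1 rose in each line (medians -1.59 in KO and -0.42 in ΔATG). Of the definitive endoderm list (SOX17, FOXA2, CER1, HHEX and CXCR4), 4 of 5 fell in each line (medians -1.26 and -0.91), and the other rose in KO. Of the 5 pluripotency genes 4 rose in KO and 3 in ΔATG, and of the 7 endothelial genes tested 1 rose and 3 fell in KO and 3 fell in ΔATG. The share of all genes called over the 5 days was 28.7% in KO and 17% in ΔATG. The part of these cell states in the APLNR difference was not tested. The endothelial list was PECAM1, CDH5, KDR, TEK, TIE1, ETV2, EMCN and ERG. PECAM1 reached at most 1.00 CPM, CDH5 1.25 CPM and EMCN 0.106 CPM in any library of day 0, BMP4 or Endo. KDR and TEK were present throughout, and the levels of TIE1, ETV2 and ERG are not given here.

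The ligands changed less under BMP4, and APELA in the opposite direction to its receptor in the mean of days 1 to 5. APELA in KO stood at 96 and 70.6, 86.4 and 56.7, 50.5 and 38.5, 38.6 and 33.3 and 32.2 and 32.3 CPM on days 1 to 5. ΔATG held 122 and 88.4, 63.9 and 54.8, 40.1 and 28.5, 28.7 and 27.9 and 31.6 and 26.5 CPM. Both edited lines lay above WT on days 2 and 3, and overlapped it on day 5. On day 1 ΔATG lay above WT and KO overlapped it. On day 4 KO lay above WT and ΔATG below it. In KO the mean rose by 0.51 ± 0.09 (adjusted p = 5.15e-06), with 1.13 ± 0.20 on day 2 and 0.89 ± 0.20 on day 3 as the called days. In ΔATG the mean rose by 0.35 ± 0.09 (adjusted p = 0.00271), and day 2 (0.86 ± 0.20) was called. The ΔATG mean did not pass when only the libraries compared were fitted (0.35, adjusted p = 0.0679), and with a block for the letter days 1 and 3 were called as well (adjusted p = 0.000263 and 0.00186). Without 1 library some calls were lost, those of KO day 3 without WT b or KO a (adjusted p up to 0.0701) and ΔATG day 2 without WT b or ΔATG a (adjusted p up to 0.443). All 3 daily calls were lost when only the 4 libraries of the day were fitted (adjusted p = 0.0844 for KO day 2, 0.104 for KO day 3 and 0.345 for ΔATG day 2). The difference of the means between ΔATG and KO was -0.16 ± 0.09 (adjusted p = 0.246), and it passed with the block (-0.16).

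APLN in KO stood at 1.04 and 1.32, 3.66 and 3.55, 3.39 and 2.83, 1.73 and 1.03 and 1.74 and 1.38 CPM on days 1 to 5 of BMP4. In ΔATG it stood at 0.808 and 0.729, 3.8 and 3.35, 2.87 and 2.05, 1.25 and 0.842 and 1.16 and 0.932 CPM. Both lines lay below WT on days 2 and 5 and overlapped it on days 3 and 4. APLN fell in KO on day 2 (-0.71 ± 0.23 (adjusted p = 0.0441)) and day 5 (-1.02 ± 0.28 (adjusted p = 0.00449)), while the KO mean of -0.19 ± 0.14 did not pass. The KO day 2 call was lost without any 1 of its 4 libraries (adjusted p up to 0.305), and that of day 5 without library b of either line (adjusted p up to 0.128). The day 2 call was also lost without the filter on low counts (adjusted p = 0.0872), with limma-voom (0.108), with DESeq2 (0.203) and when only its 4 libraries were fitted (0.0999), which ended the day 5 call as well (0.056). In ΔATG the mean fell by 0.58 ± 0.15 on the log2 scale (adjusted p = 0.00332), with day 5 called (-1.59 ± 0.31) and day 2 only with the block (-0.72, adjusted p = 0.0419). The difference of the means between ΔATG and KO was -0.38 ± 0.15 (adjusted p = 0.075).

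Under SMADi the receptor difference had the other sign, at levels far below those of BMP4. APLNR in KO stood at 2.64 and 2.4, 0.591 and 0.591, 1.48 and 1.33, 5.22 and 4.71 and 3.85 and 4.04 CPM on days 1 to 5. ΔATG held 2.28 and 2.09, 0.506 and 0.519, 1.31 and 2.33, 3.02 and 2.98 and 4.45 and 5.36 CPM. Both edited lines lay above WT on every day, and the highest library, of ΔATG on day 5, held 5.36 CPM. The mean rose by 1.93 ± 0.28 (adjusted p = 6.54e-08) in KO and by 1.84 ± 0.29 (adjusted p = 2.65e-07) in ΔATG. The background was high, with 45.6% of genes called in KO and 45.2% in ΔATG. Days 3, 4 and 5 were called in both lines, with 2.67 ± 0.75, 3.62 ± 0.52 and 2.01 ± 0.44 in KO and 3.05 ± 0.72, 2.90 ± 0.56 and 2.33 ± 0.43 in ΔATG, and days 1 and 2 were not. The KO day 3 call was lost without WT a of that day (adjusted p = 0.0598) and with limma-voom (adjusted p = 0.051). On days 1 to 5 the shares called over all genes were 8.64%, 14.7%, 30.6%, 36.1% and 35.2% in KO, and 10.3%, 16.8%, 28.4%, 34.3% and 32.3% in ΔATG. The 2 edited lines did not differ in APLNR under SMADi beyond their spread (-0.08 ± 0.21), in a comparison that called 1.07% of genes.

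The ligands under SMADi showed an early rise and a later fall in the edited lines. APELA stood at 34.2 and 31.7, 79 and 84.7, 4.7 and 4.66, 1.97 and 2.16 and 1.83 and 1.72 CPM in KO. In ΔATG it stood at 35.3 and 34, 88.4 and 89.4, 6.36 and 4.85, 3 and 3.87 and 1.17 and 1.62 CPM. Both lines lay above WT on days 1 and 2 and below it on days 3 and 4. APELA rose on day 1 (0.77 ± 0.21 in KO, 0.85 ± 0.21 in ΔATG) and fell on day 3 (-1.80 ± 0.25 and -1.55 ± 0.24), and in KO also on day 4 (-1.01 ± 0.33 (adjusted p = 0.0127)). The KO day 1 call was lost without WT a, WT b or KO a (adjusted p up to 0.112), the KO day 4 call without WT a or KO a (adjusted p up to 0.0913) or with limma-voom (0.0854), and the ΔATG day 1 call without WT b (adjusted p = 0.0578). The KO mean of -0.32 ± 0.13 (adjusted p = 0.0433) averages these opposite days and was not called without the filter on low counts (-0.31, adjusted p = 0.0554) or without any of 14 of its 20 libraries (adjusted p up to 0.083), and the ΔATG mean of -0.14 ± 0.13 did not pass.

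APLN followed the same course under SMADi. It stood at 7.45 and 7.48, 12.9 and 14.6, 0.503 and 0.732, 0.58 and 0.372 and 0.174 and 0.0827 CPM in KO on days 1 to 5. ΔATG held 7.71 and 7.41, 14 and 14.3, 0.713 and 1.27, 0.491 and 0.662 and 0.171 and 0.198 CPM. Both lines lay above WT on days 1 and 2, by log2 differences of 0.92 ± 0.22 and 1.12 ± 0.19 in KO and 0.94 ± 0.22 and 1.16 ± 0.19 in ΔATG, all called. On day 3 APLN fell by 1.64 ± 0.39 on the log2 scale in KO (adjusted p = 0.000498) and by 0.96 ± 0.35 in ΔATG (adjusted p = 0.034). The KO difference on day 5, -1.88 ± 0.75 (adjusted p = 0.042), did not pass with a block for the letter (adjusted p = 0.0582), without the filter on low counts (0.0579) or without any 1 of its 4 libraries (adjusted p up to 0.249). Without WT a of the day, the day 1 calls of both lines (adjusted p = 0.073 in KO, 0.0534 in ΔATG) and the day 3 calls (0.146 in KO, up to 0.702 in ΔATG, there also without ΔATG a) were lost. The ΔATG day 3 call was lost as well without the filter (adjusted p = 0.0548), with limma-voom (0.0949) and when only its 4 libraries were fitted (0.114), and DESeq2 called ΔATG on day 5 (-1.35, adjusted p = 0.0258).

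The day mattered for all 3 members under SMADi. In KO the joint test of the daily differences gave F = 5.03 for APLNR, 18.3 for APELA and 15.3 for APLN, in ΔATG 4.69, 14.5 and 10.6, all called. The background of that test was 32.7% in KO and 29.5% in ΔATG. For APLNR it was lost with a block for the letter (F = 2.72 in KO, 2.52 in ΔATG), and in ΔATG without WT a of day 1 (adjusted p = 0.0797). Cell state markers moved here too. The pluripotency list on day 3 summed to 2481 and 2525 CPM in WT, 1347 and 1356 in KO and 1376 and 1360.0 in ΔATG. Over the 5 days 4 of its 5 genes fell in each line, while 3 of 5 neuroectoderm genes (PAX6, SOX1, LHX2, OTX2 and ZIC1) rose and 1 fell. Of the 7 endothelial genes tested, 4 rose and 1 fell in KO and 3 rose and 1 fell in ΔATG. The share of all genes called over the 5 days was 45.6% in KO and 45.2% in ΔATG. The lateral mesoderm list summed to at most 12.5 CPM in any SMADi library, with 1 of 6 genes called in each line, lower in both. The part of these changes in the members' differences was not tested.

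Under Endo the receptor was lower in ΔATG and, on day 2, in KO. KO libraries held 199 and 207 CPM on day 1, 300.0 and 349 on day 2, 23.3 and 23.3 on day 3, 5.58 and 6.37 on day 4 and 2.77 and 2.17 on day 5. ΔATG libraries held 60.5 and 78.1, 132 and 121, 12.9 and 12.2, 4.5 and 3.8 and 2.21 and 2.26 CPM. On days 1 to 3 the order was WT, KO, ΔATG with no overlap, and by day 5 all libraries held between 1.98 and 2.77 CPM. The same 2-day peak was thus seen in every line, at a lower height in the edited lines.

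In ΔATG the Endo mean of APLNR fell by 1.18 ± 0.13 on the log2 scale (adjusted p = 2.06e-10), with 33.8% of genes called. Days 1, 2 and 3 were called (-2.09 ± 0.23, -2.13 ± 0.22 and -1.14 ± 0.25) and days 4 and 5 were not, against 14.6%, 13.7%, 15.9%, 14.8% and 18.2% of genes on days 1 to 5. This dependence on the day passed (F = 9.9, adjusted p = 0.000114; 16.2% of genes). In KO day 2 was called (-0.77 ± 0.21 (adjusted p = 0.0207)), and the mean of -0.28 ± 0.13 (adjusted p = 0.15) and the other days were not. The KO day 2 call was lost without any 1 of its 4 libraries (adjusted p up to 0.281) and with DESeq2 (0.0585), while the KO mean passed when only the libraries compared were fitted (-0.28) and so did ΔATG on day 4 (-0.63, adjusted p = 0.0269). The KO background was 14.8% for the mean, 3.28%, 4.65%, 3.7%, 4.02% and 5.48% on days 1 to 5, and 2.95% for the dependence on day, which no member passed. ΔATG stood below KO by -0.90 ± 0.13 (adjusted p = 4.53e-07), where 18.4% of genes were called. So the edited lines took opposite places in the 2 protocols, with KO the lower under BMP4 and ΔATG the lower under Endo.

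Mesoderm markers moved with this in part. The lateral mesoderm list summed to 333 and 358 CPM in WT on day 2 of Endo, 242 and 233 in KO and 102 and 113 in ΔATG, the order of APLNR. The primitive streak list summed to 3012 and 3068, 2155 and 2252 and 2207 and 2090.0 CPM. Over days 1 to 5, 5 of 6 lateral mesoderm genes fell in ΔATG (median -1.52) and 3 of 6 in KO (median -0.45), and 5 and 4 of the 6 streak genes did. Of the definitive endoderm list, 2 rose and 2 fell in ΔATG and 1 rose in KO, and the list summed to 13850.0 and 13450.0 CPM in WT, 13260.0 and 13340.0 in KO and 9237 and 8479 in ΔATG on day 5. The share of all genes called over the 5 days was 14.8% in KO and 33.8% in ΔATG. The part of these markers in the APLNR difference was not tested.

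APELA, nearly absent from WT Endo cells after day 1, stayed detectable in ΔATG and, at lower levels and to day 3, in both libraries of KO. ΔATG held 2.53 and 2.13, 0.304 and 0.488, 0.715 and 1.19, 1.74 and 2.12 and 1.1 and 1.31 CPM on days 1 to 5. KO held 1.7 and 1.6, 0.236 and 0.485, 0.101 and 0.563, 0.0613 and 0.229 and 0.0408 and 0.0789 CPM. Library a of day 4 and both libraries of day 5 in KO were near the floor of 3 counts. Every ΔATG library lay above both WT libraries of its day, and in ΔATG the level was higher on day 4 than on day 2. On day 3 the 2 ΔATG libraries held 108 counts and the 2 WT libraries 3, a ratio of 34.7 (95% exact counting interval 11.6 to 171), on day 4 192 counts against 3, a ratio of 58.4 (19.7 to 286), and on day 5 141 against 20, a ratio of 6.20 (3.86 to 10.5). These intervals cover counting error only. The ΔATG difference was called on days 3, 4 and 5 (adjusted p = 0.000697, 6.27e-06 and 0.00468), and with a block for the letter also on day 1 (adjusted p = 0.0119). The day 5 call was lost without WT b of that day (adjusted p = 0.159). DESeq2 also called ΔATG on day 1 (1.06, adjusted p = 0.00312) and day 2 (2.20, adjusted p = 0.00203). In KO 41 counts stood against 9 on day 2, a ratio of 4.25 (2.04 to 9.95), 33 against 3 on day 3, a ratio of 11.9 (3.74 to 60.7), 16 against 3 on day 4, a ratio of 4.60 (1.32 to 24.6), and 6 against 20 on day 5, a ratio of 0.309 (0.102 to 0.798). The WT libraries of day 5 held 0.379 and 0.019 CPM, on either side of both KO libraries, so the last ratio rests on WT a. No KO day was called by edgeR, and DESeq2 called day 2 (2.08, adjusted p = 0.00998) and day 3 (3.54, adjusted p = 0.00369). The mean of ΔATG was above that of KO (2.02 ± 0.33 (adjusted p = 4.2e-06)). The pluripotency list summed to 147 and 145 CPM in WT on day 4, 159 and 165 in KO and 228 and 228 in ΔATG. Over the 5 days 3 of 5 of its genes were called higher in ΔATG, against 33.8% of all genes called in either direction. The part of this list in the APELA difference was not tested.

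APLN was higher in ΔATG on the first days of Endo. It stood at 16.5 and 17.2 CPM on day 1 in ΔATG and 9.16 and 8.57 in KO, all above both WT libraries. On day 2 it was 1.74 and 0.632 in ΔATG and 0.0907 and 0.364 in KO. The rise in ΔATG passed on day 1 (1.47 ± 0.19 (adjusted p = 2.24e-08)) and day 2 (2.10 ± 0.52 (adjusted p = 0.00235)), and the KO difference on day 1 did not (0.54 ± 0.20 (adjusted p = 0.144)). The ΔATG day 2 call was lost without WT a or ΔATG a (adjusted p up to 0.389) and when only its 4 libraries were fitted (0.0862), and the KO day 1 difference passed without WT b (1.17, adjusted p = 0.00147). On days 3 and 4 WT and both edited lines were at or under the floor, and no fold is given.

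**Figure D2:**
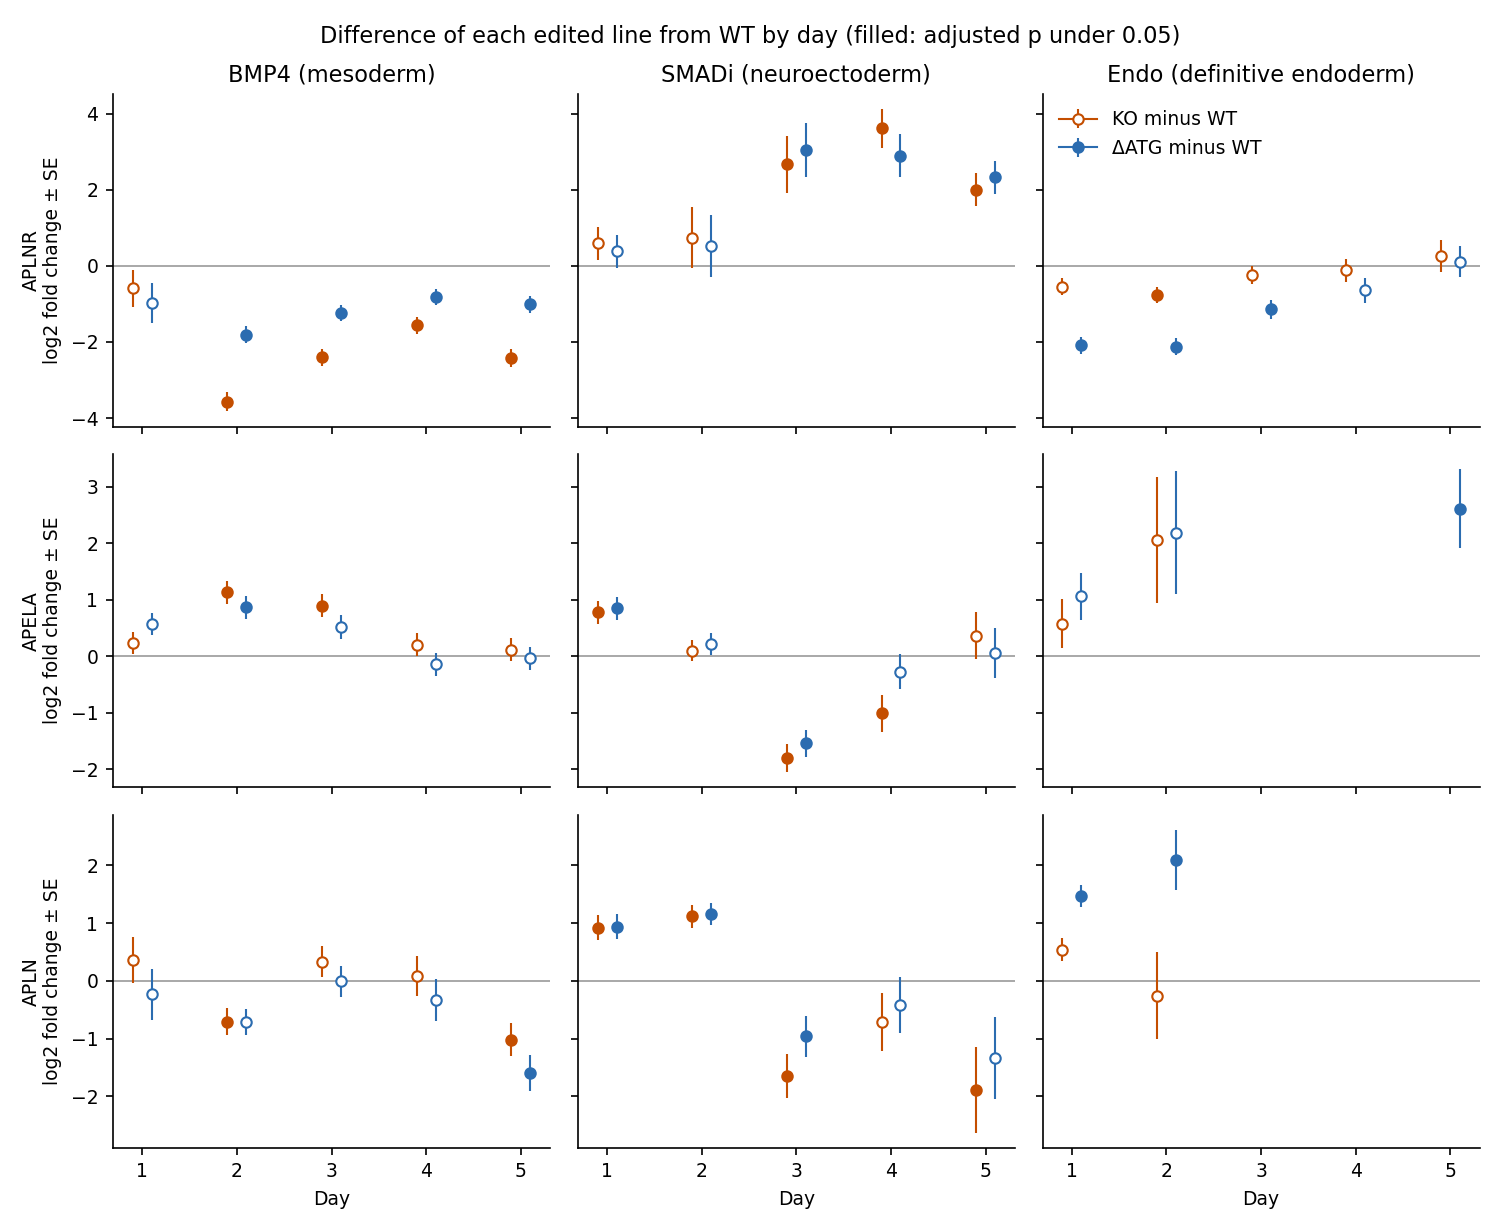
Log2 fold change ± SE of KO minus WT and ΔATG minus WT for APLNR, APELA and APLN (rows) on days 1 to 5 of BMP4, SMADi and Endo (columns); filled points have an adjusted p under 0.05 (edgeR), and days on which either group held 6 counts or fewer are not drawn. APLNR points lie below 0 under BMP4 and above 0 under SMADi in both lines, the KO points being the lower on days 2 to 5 of BMP4 and the ΔATG points the lower on days 1 to 4 of Endo.

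The difference between protocols was tested directly. For APLNR the KO difference was lower under BMP4 than under SMADi by -4.03 ± 0.33 (adjusted p = 1.33e-15), lower under BMP4 than under Endo by -1.82 ± 0.19 (adjusted p = 1.93e-11), and lower under Endo than under SMADi by -2.21 ± 0.31 (adjusted p = 5.37e-08). These tests called 42%, 20.2% and 30.2% of genes. In ΔATG the APLNR difference was lower under BMP4 than under SMADi by -3.01 ± 0.32 and lower under Endo than under SMADi by -3.02 ± 0.32, and differed between BMP4 and Endo by 0.01 ± 0.20 (adjusted p = 1). The background was 35.7%, 37.5% and 22.8%. For APELA the ΔATG difference was larger under Endo than under SMADi, by 3.47 ± 0.44, and lower under BMP4 than under Endo, by -2.97 ± 0.44. In KO the APELA difference was larger under BMP4 than under SMADi, by 0.83 ± 0.16 (adjusted p = 1.63e-05). Both edited lines are compared with the same WT libraries, so their values are given side by side and not as independent support.

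In the overexpression arm LNCPRESS1 did not follow all construct labels at the early stage. At the early stage the libraries labelled lncPRESS1 held 32.3 and 53.8 CPM and those labelled vector 29 and 30.2, while those labelled lncSIRP held 185 and 133 and those labelled lncPRESS1 ΔATG 144 and 156. At the middle stage the values were 47.8 and 36.3 for vector, 55.1 and 58.6 for lncPRESS1, 87.8 and 133 for lncPRESS1 ΔATG and 13.7 and 13.3 for lncSIRP. There both libraries labelled lncPRESS1 lay above both of vector, but by less than at the late stage. At the late stage lncPRESS1 (153 and 151) and lncPRESS1 ΔATG (154 and 156) stood above vector (32.9 and 32.6) and lncSIRP (34.9 and 35.9). Results of the early and middle stages are therefore given for the libraries labelled so, and the late stage is also given alone.

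APLNR stayed under 2 CPM in this arm except in 4 libraries of the middle stage. Libraries labelled vector held 0.589 and 0.432 CPM early, 0.623 and 0.739 at the middle stage and 0.829 and 0.696 late. The middle-stage libraries labelled lncPRESS1 held 359 and 358 CPM and those labelled lncSIRP 209 and 216, while those labelled lncPRESS1 ΔATG held 0.338 and 0.267. The 4 high libraries overlapped no other library of the arm. Both BMP4 and Endo cultures of the differentiation arm, which was scaled separately, also reached such levels. At the late stage lncPRESS1 was at 1.59 and 1.1 CPM, lncSIRP at 1.81 and 1.72 and lncPRESS1 ΔATG at 0.458 and 0.444. At the early stage all 3 constructs lay below vector, with 0.186 and 0.182 CPM for lncPRESS1, 0.145 and 0.0327 for lncPRESS1 ΔATG and 0.106 and 0.0766 for lncSIRP.

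Against vector at the middle stage, APLNR rose by 9.03 ± 0.15 (adjusted p = 1.45e-18) in libraries labelled lncPRESS1, where 58.1% of genes were called, and by 8.27 ± 0.15 (adjusted p = 4.13e-18) in those labelled lncSIRP, where 60.4% were. In libraries labelled lncPRESS1 ΔATG it fell, by -1.18 ± 0.34 (adjusted p = 0.0455), with 7.36% called. At the late stage it rose by 0.81 ± 0.25 (adjusted p = 0.0281) in lncPRESS1 (22.6% of genes called) and by 1.20 ± 0.24 (adjusted p = 0.00292) in lncSIRP (21.4%), and in lncPRESS1 ΔATG the difference of -0.76 ± 0.32 (adjusted p = 0.103) did not pass (21.1%). At the early stage it fell in libraries labelled lncSIRP (-2.45 ± 0.50 (adjusted p = 0.0067); 10.8% of genes) and lncPRESS1 ΔATG (-2.52 ± 0.51 (adjusted p = 0.00171); 26.3%), and those labelled lncPRESS1 gave -1.44 ± 0.43 (adjusted p = 0.168), where 0.412% of genes were called. Leaving out 1 library ended the middle lncPRESS1 ΔATG call in all 4 cases (adjusted p up to 0.269), the late lncPRESS1 call without vector a, vector b or lncPRESS1 a (up to 0.239), and the early lncSIRP call without vector a or lncSIRP b (up to 0.109). The middle lncPRESS1 ΔATG and late lncPRESS1 calls were also lost without the filter on low counts (adjusted p = 0.108 and 0.0551), with limma-voom (0.0659 and 0.0565) and when only the 4 libraries were fitted (0.243 and 0.0959), as was the early lncPRESS1 ΔATG call in that last fit (0.0666). DESeq2 called the early lncPRESS1 (-1.46, adjusted p = 0.0133) and late lncPRESS1 ΔATG (-0.76, adjusted p = 0.0312) differences. The mean of the 3 stages was 2.80 ± 0.26 for lncPRESS1 (45.8% of genes called), 2.34 ± 0.32 for lncSIRP (50.1%) and -1.49 ± 0.23 for lncPRESS1 ΔATG (25.8%), all called. The first 2 means rest on the middle stage, and the late stage alone gave 0.81 and 1.20. ΔATG stood below lncPRESS1 by -4.28 ± 0.32 over the stages, where 46% of genes were called, and by -1.57 (adjusted p = 0.000606) at the late stage alone. Between vector stages no member passed, with 0.0215% of genes called from early to middle and 0.129% from early to late.

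The 4 high libraries also stood apart in markers of cell state. The pluripotency list summed to 362 and 370.4 CPM in middle-stage libraries labelled lncPRESS1 and 422 and 409.9 in those labelled lncSIRP, beside 3720.0 and 3801 in vector and 3185 and 2927 in lncPRESS1 ΔATG. The lateral mesoderm list summed to 1350.0 and 1289 and 1151 and 1175 CPM, beside 11.4 and 10.3 in vector. In both constructs 5 of 5 pluripotency genes fell and 6 of 6 lateral mesoderm genes rose, with medians of -4.86 and 9.75 in libraries labelled lncPRESS1. The amnion and trophoblast list summed to 863 and 840.0 and 607 and 609.7 CPM beside 6.96 and 6.36. Of the 7 endothelial genes tested 6 rose in each construct, KDR to 838 and 855 CPM in libraries labelled lncPRESS1 from 227 and 249.5 in vector, and PECAM1 stood at 4.93 and 10.8 and CDH5 at 1.14 and 1.33 CPM. The share of all genes called was 58.1% in libraries labelled lncPRESS1 and 60.4% in those labelled lncSIRP. The part of these markers in the APLNR level was not tested.

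The ligands moved differently from each other in this arm. APELA was at 7.36 and 8.42 CPM in early, 8.77 and 10.1 in middle and 11.1 and 9.7 in late vector libraries. In libraries labelled lncPRESS1 ΔATG it was 24.4 and 43.4, 14.5 and 14.9 and 26.9 and 31 CPM, above vector at each stage, and its mean rose by 1.41 ± 0.13 (adjusted p = 3.79e-07). In libraries labelled lncPRESS1 it was 12.6 and 12, 11.3 and 8.77 and 3.63 and 5.68 CPM. It fell there at the late stage (-1.16 ± 0.26 (adjusted p = 0.00573)) and the other stages did not pass. That call was lost without vector a or lncPRESS1 a (adjusted p up to 0.0677). In those labelled lncSIRP it was 11.1 and 13.6, 22.6 and 20.1 and 5.73 and 6.36 CPM, so that it rose at the middle stage (1.17 ± 0.23 (adjusted p = 0.000257)) and fell late (-0.78 ± 0.26 (adjusted p = 0.0389)), opposite signs that make its mean over stages of 0.35 ± 0.14 depend on the stages taken. The late call was lost without any 1 of its 4 libraries (adjusted p up to 0.223) and with limma-voom (0.0612), and that of the mean without any of 11 of its 12 (up to 0.134).

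APLN was at 5.67 and 5.67, 3.68 and 4.12 and 3.05 and 2.67 CPM in early, middle and late vector libraries. In the 4 middle-stage libraries where APLNR was high it was low, at 0.267 and 0.19 CPM in those labelled lncPRESS1 and 0.383 and 0.401 in those labelled lncSIRP. It fell there by 4.04 ± 0.90 on the log2 scale (adjusted p = 0.000943) and by 3.31 ± 0.78 (adjusted p = 0.00147). In early libraries it stood at 7.26 and 1.4 CPM for lncPRESS1, 1.01 and 0.95 for lncSIRP and 5.91 and 4.51 for lncPRESS1 ΔATG, and fell in those labelled lncSIRP (-2.53 ± 0.57 (adjusted p = 0.0124)). The 2 early libraries labelled lncPRESS1 lay on either side of vector, and without library a the difference passed (-2.02, adjusted p = 0.0242). The early lncSIRP call was lost without any 1 of its 4 libraries (adjusted p up to 0.121). The late libraries held 1.55 and 1.24 for lncPRESS1, 1.69 and 0.734 for lncSIRP and 2.29 and 2.1 for lncPRESS1 ΔATG, with no call, although the first 2 passed when only the 4 libraries were fitted (-1.03, adjusted p = 0.018, and -1.26, adjusted p = 0.0226). In middle libraries labelled lncPRESS1 ΔATG APLN was at 13.2 and 6.1 CPM, above vector in both but not called (1.30 ± 0.41 (adjusted p = 0.0673)) unless library b of that construct (1.75, adjusted p = 0.0187) or the filter on low counts (1.33, adjusted p = 0.0327) was left out.

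**Figure D3:**
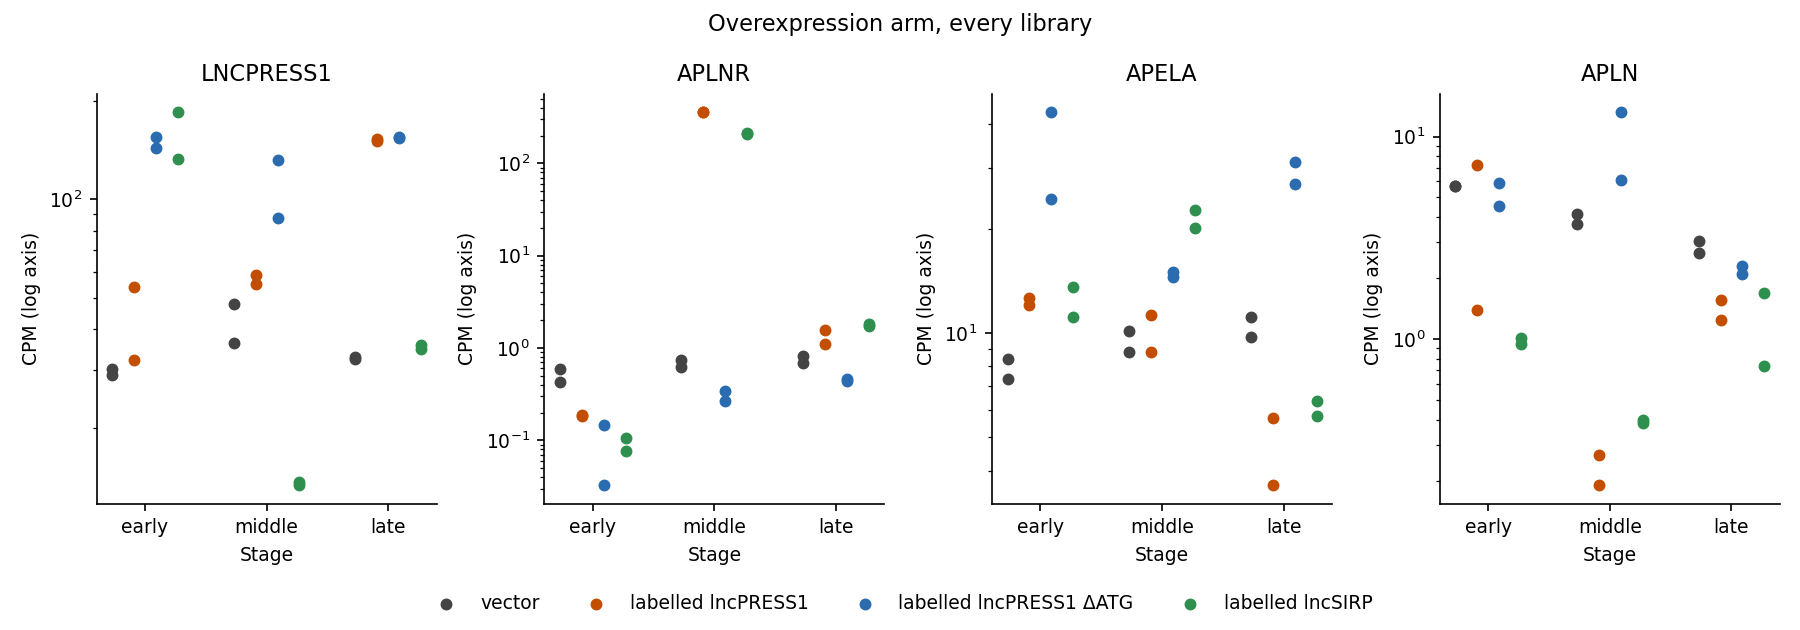
LNCPRESS1, APLNR, APELA and APLN in the 24 libraries of the overexpression arm (CPM on a log axis, 2 points per construct and stage). At the middle stage the libraries labelled lncPRESS1 and lncSIRP hold over 200 CPM of APLNR and under 0.5 CPM of APLN, and LNCPRESS1 is high in the libraries labelled lncPRESS1 only at the late stage.

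**Figure D4:**
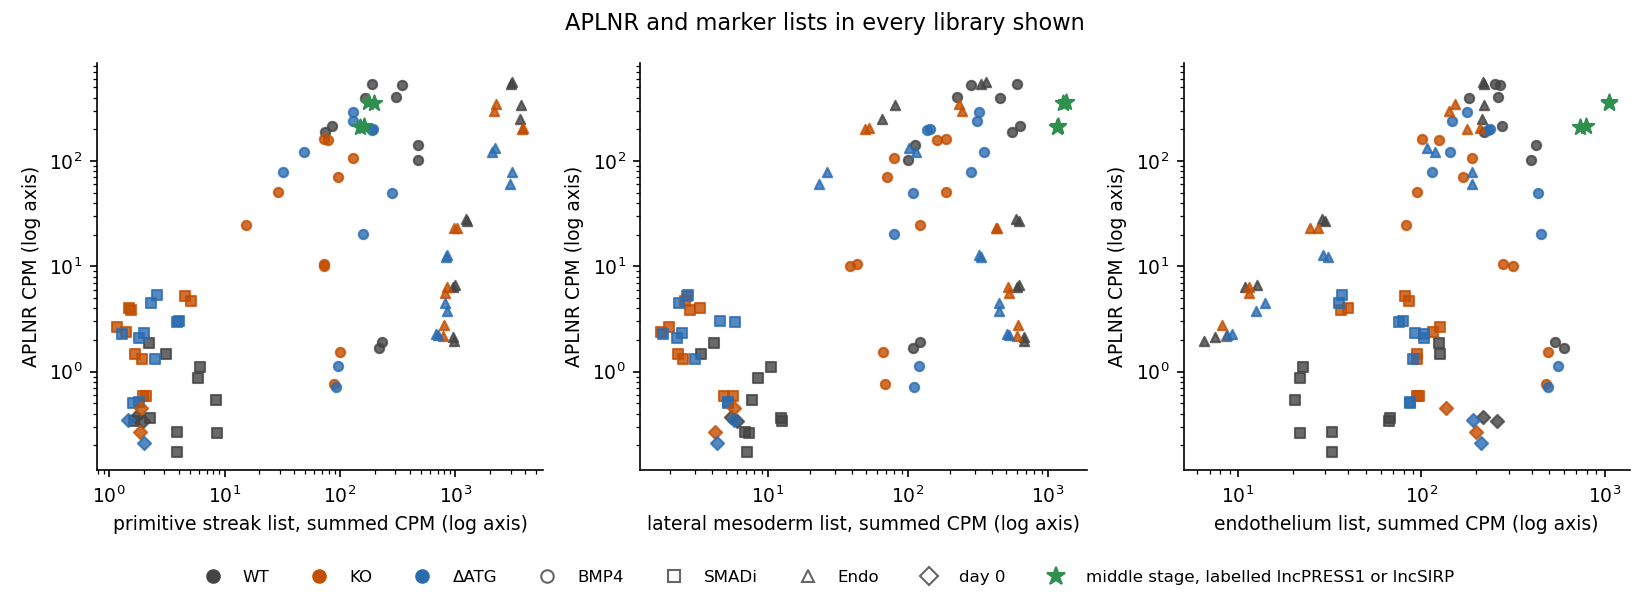
APLNR level against the summed level of the primitive streak, lateral mesoderm and endothelium lists, 1 point per library, both axes logarithmic in CPM; colours are lines, shapes are protocols, and green stars are the 4 middle-stage libraries labelled lncPRESS1 or lncSIRP. The points with the most APLNR are Endo libraries of days 1 and 2, BMP4 libraries of days 3 to 5 and the stars, the late days of Endo keep high mesoderm lists with little APLNR, and SMADi libraries stay at the lower left of the first 2 panels.

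The other genes of the pathway were taken as a list of 32 that act before, beside or after the receptor. All 32 could be tested in differentiating cells and 31 in overexpressing cells. In KO under BMP4, 3 rose, 12 fell and 17 were not called, with a median log2 difference of -0.12 beside -0.00456 over all genes. Over all genes 28.7% were called there. In ΔATG under BMP4, 4 rose and 8 fell (median -0.05), against 17% of all genes called. The counts under SMADi were 6 up and 12 down in KO, against 45.6% of all genes, and 6 up and 10 down in ΔATG, against 45.2%. Under Endo 3 were up and 6 down in KO, against 14.8%, and 4 up and 12 down in ΔATG, against 33.8%. On day 0, 1 rose and 2 fell in KO, against 4.89%, and 1 rose and 1 fell in ΔATG, against 5.5%.

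Of the proteases that cut such precursors, FURIN fell in KO under BMP4 (-0.57 ± 0.03 (adjusted p = 1.79e-20)) and stood on day 5 at 210.4 and 217 CPM in WT, 92.6 and 116 in KO and 129 and 130.0 in ΔATG. It also fell under SMADi, by -0.58 ± 0.04 in KO. Of the peptidases that degrade apelin, MME (neprilysin) fell in KO under BMP4 (-1.07 ± 0.09 (adjusted p = 1.06e-14)), with 38.5 and 55.5 CPM in WT, 8.49 and 10.5 in KO and 15.7 and 18.8 in ΔATG on day 5. GNAI1, a subunit of the inhibitory G protein to which the receptor couples, fell by 0.55 ± 0.10 on the log2 scale in KO under BMP4 (adjusted p = 7.97e-06), and the other 4 G protein genes there were not called.

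ARRB1, a beta-arrestin that takes receptors off the surface, had the widest differences of the list in the mean of days 1 to 5. Under SMADi that mean fell in KO by -2.82 ± 0.11 (adjusted p = 1.34e-28) and in ΔATG by -2.43 ± 0.11 (adjusted p = 8.99e-27). On day 4 it stood at 11.7 and 12.9 CPM in WT, 0.868 and 1.69 in KO and 1.55 and 1.72 in ΔATG. It also fell in both lines under BMP4 (-1.01 ± 0.08 in KO, -0.46 ± 0.08 in ΔATG) and under Endo (-0.89 ± 0.08 and -1.08 ± 0.08). GRK5, a kinase that marks active receptors for arrestin, fell under BMP4 (-0.79 ± 0.06 in KO) and GRK2 under SMADi (-0.36 ± 0.03 in KO).

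Further down the pathway, AKT1 and MAPK3 fell in KO under BMP4 (-0.29 ± 0.03 and -0.17 ± 0.04) and under SMADi (-0.40 ± 0.03 and -0.42 ± 0.04). KLF2, which apelin induces in endothelial cells, fell in KO under BMP4 (-0.85 ± 0.29 (adjusted p = 0.0234)), at 18.6 and 26.2 CPM in WT and 1.45 and 2.5 in KO on day 5. KLF4 fell under SMADi (-0.97 ± 0.08 in KO) and under Endo (-1.09 ± 0.14 in ΔATG), and NOS3, the endothelial nitric oxide synthase, rose under Endo (0.71 ± 0.09 in ΔATG). Of the receptors reported to pair with APLNR, NTSR1 and OPRK1 rose in KO under SMADi (0.78 ± 0.18 and 0.70 ± 0.16).

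At the middle stage of the overexpression arm, 13 of 31 list genes rose and 6 fell in libraries labelled lncPRESS1 (median 0.23, -0.0385 over all genes), and 14 rose and 5 fell in those labelled lncSIRP. The share of 58.1% called over all genes is near that of the list. FURIN stood at 383 and 391 CPM in libraries labelled lncPRESS1 and 66.9 and 72.4 in vector. MME stood at 201 and 210.5 beside 20.1 and 20.8, and KLF2 at 12.2 and 12.7 beside 0.283 and 0.33. Each of these 3 rose by the test and had no overlap with vector.

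**Figure D5:**
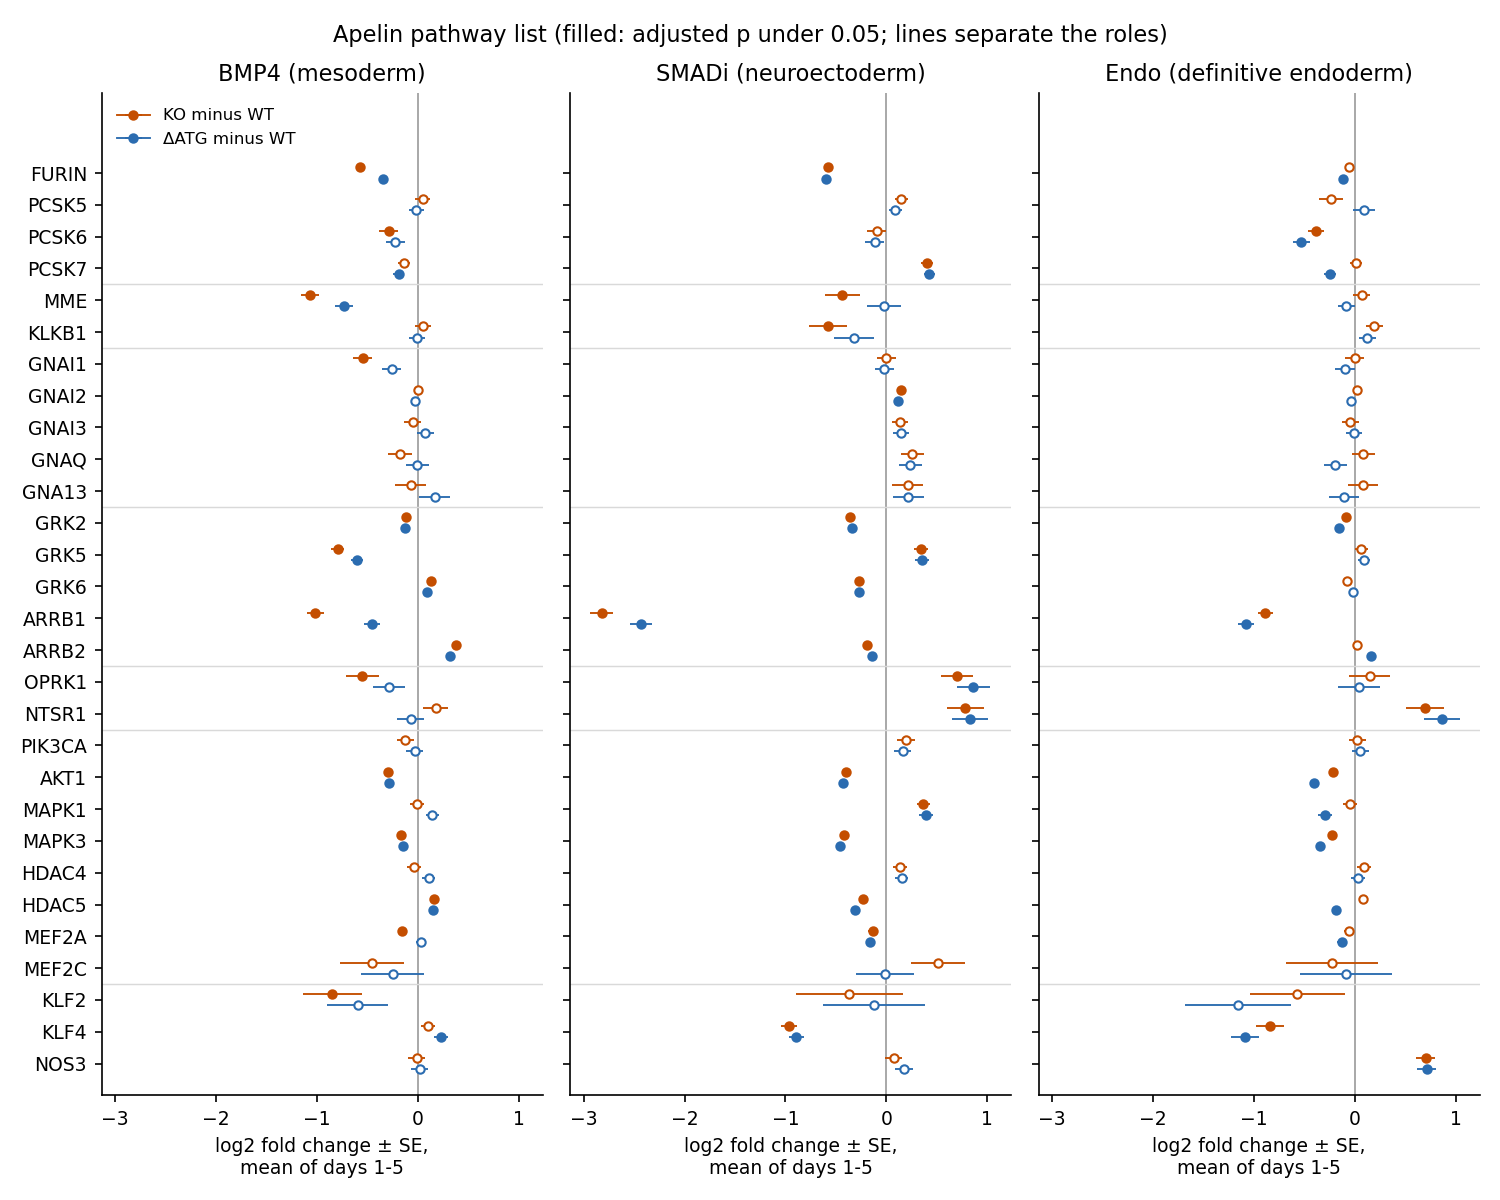
Log2 fold change ± SE, mean of days 1 to 5, of KO minus WT and ΔATG minus WT for 29 genes of the pathway list, by protocol; filled points have an adjusted p under 0.05 (edgeR), grey lines separate roles, and the 2 genes with a mean under 0.5 CPM, AGTR1 and BDKRB1, are not drawn. ARRB1 under SMADi lies farthest from 0, and most other genes lie within 1 log2 unit of 0.

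Likeness to each member was measured by the Pearson correlation of mean log2 CPM over the 48 groups of the differentiation arm, among the 13799 genes whose mean log2 CPM reached 1, as a description. APLNR was most like PDGFRA (r = 0.821), COL5A1 (0.818), FRMD8 (0.801), TBX6 (0.787) and GSTM3 (0.786). PDGFRA is a growth factor receptor of mesoderm and TBX6 a transcription factor of presomitic mesoderm. APELA was most like TERF1 (0.943), AIG1 (0.938), SGK1 (0.937), FOXI3 (0.934) and CEBPZ (0.932), of which TERF1 binds telomere repeats. APLN was most like INTS13 (0.924), DMC1 (0.922), CDCA7L (0.911), STRBP (0.908) and AUNIP (0.903).

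The members were less like each other. Over the 48 groups r was -0.182 between APLNR and APELA, -0.0171 between APLNR and APLN and 0.736 between the ligands. Within the 15 groups of a protocol, 5 days in each of 3 lines, APLNR and APELA had r = -0.930 under BMP4, -0.543 under SMADi and 0.191 under Endo. APLNR and APLN had r = 0.368 under BMP4, -0.491 under SMADi and 0.686 under Endo. The ligands had r = -0.238 under BMP4, 0.968 under SMADi and 0.488 under Endo. By Spearman's rho the values were -0.338 for APLNR and APELA over the 48 groups, and -0.107 under BMP4 and 0.136 under Endo for the ligands. For APLNR and APLN rho was 0.175 under BMP4. High receptor levels beside low APELA levels were thus the pattern under BMP4. Under SMADi the 2 ligands rose together from day 1 to day 2 and fell together after it.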

How the data were processed

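Polyadenylated RNA of 120 H1 libraries was extracted with a column kit and made into stranded mRNA libraries, per the labels' protocols. The deposited table holds estimated counts per gene with decimals, length scaled by its name, for 62703 genes on GRCh38 per the submitters' processing notes. Not given in the sources used here are the aligner, the quantifier and the annotation. The members and lists were chosen with earlier results of these data known.

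Counts were rounded and the 2 arms fitted separately in R 4.3.3 with edgeR 4.0.16, 1 mean per group, which left 48 and 12 residual degrees of freedom. filterByExpr left 25821 and 23300 genes, and TMM factors ran from 0.8575 to 1.114 (differentiation) and from 0.8748 to 1.137 (overexpression). Tests were two-sided, with the quasi-likelihood F test and Benjamini-Hochberg adjustment within each comparison, called under 0.05. Each SE is the absolute log2 fold change over the root of F, which fails for F near 0, where none is given. Comparisons over days or stages average the single contrasts, and dependence on day is a joint F test of their differences. The logarithm of CPM uses a prior count of 2. Libraries of a group were checked to be distinct. The pipeline was tested on simulated data.

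Coding sequences and positions come from GENCODE 29 on GRCh38. Named were the members, LNCPRESS1, at most 2 called genes per pathway role in a comparison by size of change, the marker lists, and the 5 genes most like each member. The values of 1 pathway gene are not reported here, and counts over the list include it. Alternatives were DESeq2 1.42.0, limma-voom (limma 3.58.1), no filter, a block for the letter, only the libraries compared, and each library left out. The late stage alone was added after seeing the data. Figures used matplotlib 3.10.9 in Python 3.11.15.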

Additional observations from a re-analysis of the deposited data

Results flagged for a closer look

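The effect of an edit on a member differed between days, protocols or stages in the following results, tested by edgeR except where stated. The KO difference depended on the day under BMP4 for APLNR (F = 12.6), APELA (5.36) and APLN (4.77), and under SMADi for APLNR (5.03), APELA (18.3) and APLN (15.3). The ΔATG difference depended on the day under SMADi for APLNR (F = 4.69), APELA (14.5) and APLN (10.6), and under Endo for APLNR (9.90) and APELA (4.85).

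Between protocols, the KO difference in APLNR differed by a log2 value of -4.03 between BMP4 and SMADi, -1.82 between BMP4 and Endo and -2.21 between Endo and SMADi, and in APELA by 0.83 between BMP4 and SMADi. The ΔATG difference in APLNR differed by -3.01 between BMP4 and SMADi and -3.02 between Endo and SMADi. In APELA it differed by 0.49 between BMP4 and SMADi, -2.97 between BMP4 and Endo and 3.47 between Endo and SMADi.

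In the overexpression arm some members lay on one side of vector at one stage and on the other side at another, in both libraries each time, and the difference between stages was not tested. APLNR in libraries labelled lncPRESS1 had log2 differences of -1.44 early, 9.03 at the middle stage and 0.81 late, and in those labelled lncSIRP -2.45, 8.27 and 1.20. APELA in libraries labelled lncPRESS1 had 0.64 early and -1.16 late, and in those labelled lncSIRP 0.65 early, 1.17 at the middle stage and -0.78 late. APLN in libraries labelled lncPRESS1 ΔATG had 1.30 at the middle stage and -0.38 late.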

How the results depend on the processing

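Of 3759 values of member results under an alternative, 3565 kept their side of the threshold and, where called, their direction. This held for 158 of 234 results under every alternative. Direction was not compared where neither value was called, and joint tests have none. The late stage alone, added after seeing the data, turned the sign of APELA in lncSIRP against vector (-0.78), ended the calls of APLN in lncPRESS1 (-1.04) and lncSIRP (-1.26) against vector and in lncPRESS1 ΔATG against lncPRESS1 (0.65), and gave one of APELA in lncPRESS1 (-1.16). The cause was not tested. Libraries of 1 letter deviated together at day 0 (correlation of b minus a over 0.1 in 3 of 3 pairs of groups, 0.166 to 0.352) and in part under BMP4 (11 of 15, 0.0421 to 0.229), and in none of 15 pairs under SMADi or Endo. The labels name no shared batch. The replicate block ended the dependence on day of APLNR under SMADi (F = 2.72 in KO, 2.52 in ΔATG) and gave calls to the dependence of APELA in ΔATG under BMP4 (F = 14.1), to APELA in ΔATG against KO on day 0 (0.50) and under BMP4 (-0.16), and to the Endo against SMADi difference of APELA in KO (1.61).

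Fitting only the libraries compared ended the calls of APLN in KO on day 0 (0.72), APLN in ΔATG against KO on day 0 (-1.09), APELA in ΔATG under BMP4 (0.35), and the dependence on day in KO under BMP4 (F = 8.36 for APLNR, 2.62 for APELA, 5.27 for APLN). It gave calls to APLNR in WT from day 0 to 5 of SMADi (1.42), APLNR in KO under Endo (-0.28), the Endo against SMADi difference of APELA in KO (1.63) and APLN between late and early vector (-1.01). DESeq2 ended APLN in KO on day 0 (0.72) and called APLNR from day 0 to 5 of SMADi (1.39), APLN between BMP4 and SMADi (0.37), APLN in KO under SMADi (-0.44), APELA in KO under Endo (1.33) and its Endo against SMADi difference (1.65). Its joint tests were not run. limma-voom ended the dependence on day of APLNR (F = 4.09) and APLN (2.66) in KO under BMP4, of APLNR under SMADi (2.97 in KO, 2.81 in ΔATG) and of APELA in ΔATG under Endo (3.46), and the calls of APELA in KO under SMADi (-0.32) and in lncSIRP (0.34). It gave a call to the dependence of APLN in ΔATG under Endo (4.28) and to APELA in KO between Endo and SMADi (1.70). Without the filter APELA in KO under SMADi (-0.31) and in lncSIRP (0.34) lost their calls.

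Leaving out 1 library reversed no called result. Calls changed over these ranges: APELA from WT day 0 to 5 of BMP4, -1.15 to -0.43; APLN between BMP4 and SMADi in WT, 0.24 to 0.45; APLN in KO on day 0, 0.48 to 0.94. The dependence on day in KO under BMP4 ran from F = 3.31 to 7.06 for APELA and from 3.58 to 5.53 for APLN, in ΔATG under BMP4 from 0.998 to 8.71 for APLNR and from 3.14 to 6.25 for APELA, under SMADi from 3.07 to 5.05 for APLNR, and under Endo from 2.84 to 5.80 for APELA. The mean in KO under SMADi ran from -0.33 to -0.30 for APELA and from -0.55 to -0.31 for APLN. ΔATG against KO ran from 0.29 to 0.72 for APELA on day 0 and from -0.45 to -0.30 for APLN under BMP4. The Endo against SMADi difference of APELA in KO ran from 1.28 to 2.41, and APELA in lncSIRP from 0.29 to 0.39. The count of genes called, the background above, moved by over 1.5 times in 28 of 78 comparisons when only the compared libraries were fitted, in 20 with the block, in 5 without the filter, in 4 of 69 with DESeq2 and in 1 with limma-voom. Calls of single days and stages that an alternative ended are named with the result. Depth limits APELA in WT from day 2 of Endo and APLN in every line from day 3 of Endo, where most libraries lay near the floor of 3 counts.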
